A study of Mus musculus with 4 samples.

Results

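Chromosome 18 of the mouse carried 1757 accessible regions in B16-F10 melanoma cells, of 72425 regions found in all. These are the stretches of the chromosome in which at least 1 of 4 ATAC-seq libraries had a peak call, with calls that shared 1 bp or more merged into a single union region. The members were chosen by the calls of these same 4 lists and by their chromosome, so which libraries called a region is a description. They are described along the chromosome in 10 Mb bins and set beside the 69430 regions of the 18 other autosomes. ATAC-seq uses the Tn5 transposase, which inserts sequencing adapters into DNA that is not wrapped up in nucleosomes, so a peak marks open chromatin.

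B16-F10 is a pigmented melanoma line of C57BL/6 mice. Of the 4 libraries, 2 are labelled wild type and 2 come from cells in which Ssbp4 was disrupted with Cas9 nuclease and a mixture of guide RNAs. According to the protocol, control cells received Cas9 with a guide against an intergenic site on chromosome 2, so both genotypes went through electroporation. Neither group is described as a clone or as a pool, and all nuclei came from frozen and thawed cells. The labels number the libraries within each genotype and name no culture or day, so the spread between replicates may be technical only. With 2 libraries a genotype, no exact permutation test over libraries can reach a two-sided p below 0.3333.

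Open regions of a chromosome are mostly promoters and enhancers, the short elements where transcription factors displace nucleosomes. SSBP4 belongs to a family of single-stranded DNA-binding proteins that stabilise LDB1, an adaptor that joins LIM-domain transcription factors and links enhancers to promoters. Mouse chromosome 18 holds tumour suppressor genes such as Apc and Smad4, the clustered protocadherin genes of cell adhesion and Npc1, whose product exports cholesterol from lysosomes. Positions of genes in the GRCm39 build were not used here, so regions are named by position and none is assigned to a gene. For the same reason the melanocyte identity of the cells and the loss of Ssbp4 were not checked from the lists. In bulk cells, a region open in fewer cells and a region less open in each cell cannot be told apart.

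The lists as a whole differed between the genotypes, which touches every comparison that follows. On the 19 autosomes there were 58292 and 62085 calls in wild-type replicates 1 and 2 and 49319 and 56861 in knockout replicates 1 and 2. The pileup that the peak caller used as genome-wide background was 14.7 and 15.1 in wild type versus 17.2 and 17.4 in the knockout. Read totals were not used, so the depth of each library is known only through these values.

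Chromosome 18 had 1486 and 1574 calls in wild type, against 1240 and 1431 in the knockout. Both knockout libraries thus had fewer calls than both wild-type libraries. The chromosome's share of autosomal calls was 2.55% in wild-type replicate 1 (Wilson 95% interval 2.42 to 2.68) and 2.54% in replicate 2 (2.41 to 2.66). It was 2.51% (2.38 to 2.66) in knockout replicate 1 and 2.52% (2.39 to 2.65) in replicate 2. These intervals, which cover counting error only, overlapped between all 4 libraries. By base pairs covered, the order of the genotypes was the other way round: chromosome 18 held 2.50% and 2.51% of the covered autosomal sequence in wild type versus 2.54% and 2.53% in the knockout. The mean knockout minus wild-type difference was −0.027 percentage points by calls, with a two-sided exact permutation p of 0.3333 (0.352 after Benjamini-Hochberg adjustment over 19 autosomes), and 0.028 by base pairs. Both knockout shares of calls lay below both wild-type shares. The exact permutation p was also 0.3333 for every other autosome except chromosome 17 (0.667), so a separation of the genotypes was not particular to chromosome 18. Its difference by calls was the 7th highest of 19, against a median of −0.10 on the other autosomes. A test of this size cannot pass 0.05.

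Calls on the chromosome were somewhat longer in the knockout and less enriched. Their median length was 860 and 826 bp in wild type versus 983 and 873 bp in the knockout, against 890, 838, 958 and 862 bp on the other autosomes in the same order. Median fold enrichment at the summit, the pileup over the local background as deposited by the authors, was 6.51 and 6.71 in wild type versus 5.28 and 5.47 in the knockout. It was lower on the other autosomes in every library, at 5.82, 6.14, 4.55 and 4.70. The median recovered pileup was 131 and 141 reads on chromosome 18 in wild type, against 132 and 141 elsewhere, and 126 and 130 in the knockout, against 116 and 121 elsewhere. More calls of this chromosome had a local background at the genome-wide level: 42.9% and 45.4% in wild type versus 37.4% and 39.1% in the knockout, against 33.9%, 37.0%, 28.8% and 30.3% on the other autosomes.

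The regions were thinly spread. With 20.1 regions per Mb between its first and last region, chromosome 18 was the 18th of 19 autosomes, where chromosome 14 had 17.4 and chromosome 11 had 47.6. The median gap between neighbouring regions was 15.2 kb, against 10.0 kb on the other autosomes. Gaps longer than 1 Mb numbered 8, and the longest stretch without any region ran for 1970 kb (18:17708588–19678151). The closest neighbours that stayed separate lay 57 bp apart, and the smallest overlap that merged calls was 8 bp. Regions had a median length of 911 bp and ranged from 307 to 4657 bp, with 21 of 2500 bp or more. The longest, 18:9489729–9494385, merged 2 calls from each library and was weak. The folds of the stronger call were 3.15 and 3.01 in wild type versus 2.42 and 2.96 in the knockout.

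Regions were crowded into a pair of bins. The bin from 30 to 40 Mb held 381 regions (21.7% of the chromosome's) and the bin from 60 to 70 Mb held 337 (19.2%). The bin from 20 to 30 Mb held 5.75% of the regions, the fewest of the 9 complete bins, and the short end of the chromosome beyond 90 Mb had 3. The densest 1 Mb lay between 18:60693231 and 61689098, with 94 regions. Of these, 68 were called in all 4 libraries, 3 were lost and 2 were gained, as defined below. Over the 18 other autosomes 60.7% of regions were called in all 4 libraries, 7.05% were lost and 1.52% were gained. The window was picked for its density, and its counts were not tested. In the bin from 30 to 40 Mb the calls covered 318 and 326 kb in wild type versus 301 and 313 kb in the knockout. From 50 to 60 Mb they covered 145 and 147 kb in wild type, against 130.3 and 133.5 kb in the knockout. From 0 to 10 Mb they covered 87.9 and 87.6 kb in wild type, against 85.2 and 88.2 kb in the knockout, and this was the only complete bin in which the genotypes overlapped.

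**Figure D1:**
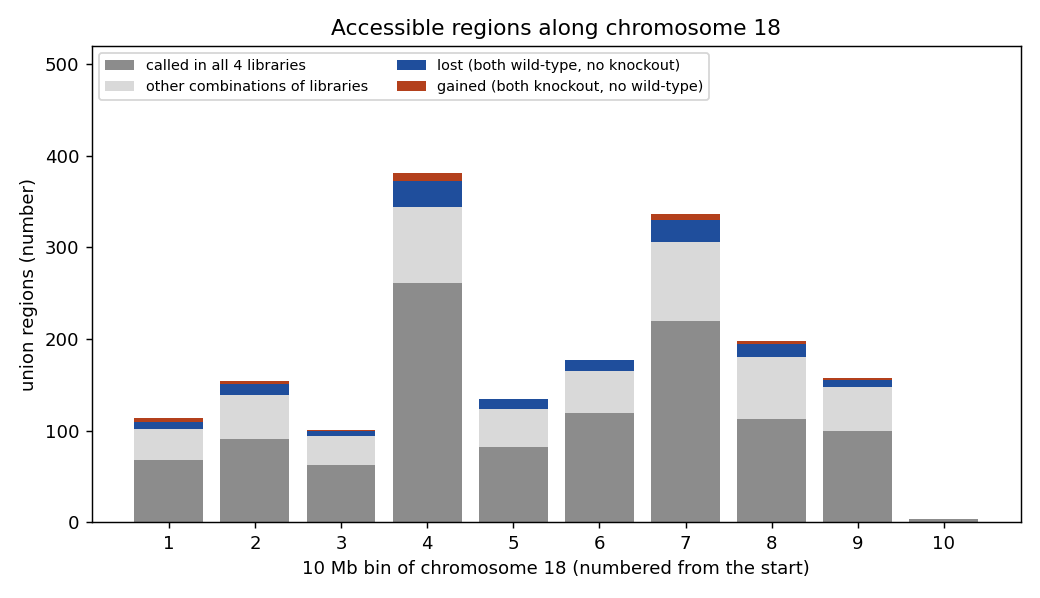
Number of union regions (vertical axis) in each 10 Mb bin of chromosome 18 (horizontal axis, numbered from the start of the chromosome), stacked by the libraries that called them. Bins 4 and 7 hold 381 and 337 regions; gained regions are absent from bins 5 and 6, and bin 10 holds 3 regions.

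The strongest region of each bin is the region called in all libraries with the highest standing in its lists. The standing is the lowest percentile over the 4 lists, and it sets 1 region apart in each bin, so a fuller bin can hold others that stand higher than the strongest of a sparse one. Folds at 18:36692493–36694456, with the highest summit pileups of the set in wild type, were 11.98 and 12.8 in wild type, against 11.4 and 12.4 in the knockout, an overlap. Its pileups were 3080 and 3509 reads in wild type versus 2513 and 3035 in the knockout. At 18:57058103–57059446 the folds were 15.1 and 16.6 against 12.3 and 14.7, both knockout values below both wild-type values. At 18:49888121–49889430 they were 14.9 and 16.03 against 12.9 and 14.5, likewise apart.

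Of the other strongest regions up to 90 Mb, 4 were also apart and 2 overlapped. At 18:21432704–21433941 the folds were 14.1 and 14.3 in wild type, against 12.4 and 13.96 in the knockout. At 18:80512482–80513927 they were 13.93 and 13.96 against 11.7 and 12.7, and at 18:60752936–60754465 they were 12.1 and 13.2 against 9.83 and 10.9. The region 18:13105830–13107600 had 11.2 and 11.5 against 10.1 and 10.2. In these 4 regions both knockout values lay below both wild-type values, as the lists' median folds did. The genotypes overlapped at 18:5818931–5820654, with 10.9 and 11.7 against 9.50 and 11.0, and at 18:73704725–73705959, with 12.02 and 12.7 against 10.5 and 12.2.

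The strongest region beyond 90 Mb, the last of this set, had a very high fold. At 18:90620313–90620754, 442 bp long, the folds reached 22.9 and 24.9 in wild type, against 20.2 and 21.4 in the knockout, again apart. That made it the highest fold of the whole list in wild-type replicate 1 and knockout replicate 1 and the second highest in the other 2. Its pileup was 1082 and 1272 reads in wild type versus 1291 and 852 in the knockout, which overlapped. The other regions beyond 90 Mb were also strong, with folds of 14.8 and 15.9 in wild type versus 12.7 and 13.5 in the knockout at 18:90527711–90528931, and 13.7 and 14.7 against 11.8 and 12.9 at 18:90597155–90598614.

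In all, 1120 of the 1757 regions (63.7%) were called in every library, against 60.7% on the 18 other autosomes, the third highest share among 19 autosomes. A region was counted as lost when it had calls in both wild-type replicates and in no knockout replicate, and as gained in the reverse case. There were 122 lost regions on chromosome 18 (6.94%, background 7.05%) and 30 gained regions (1.71%, background 1.52%). Both shares lay near those of the other autosomes, whose lost regions ranged from 4.27% on chromosome 6 to 10.3% on chromosome 19 and whose gained regions ranged from 0.468% on chromosome 19 to 3.24% on chromosome 6. Chromosome 18 was the 11th of 19 autosomes for lost and the sixth for gained regions.

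Leaving out a library drops a condition of the lost and gained rule, so the counts then rise by construction. Without wild-type replicate 1 there were 234 lost regions and without knockout replicate 2 there were 247. Gained regions numbered 88 without knockout replicate 1, which had the shortest list, and 58 without knockout replicate 2. With lists cut to equal length there were 78 lost and 63 gained regions. The same counts were not made on the other autosomes for these settings.

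Lost regions were spread along the chromosome. Their share of a bin ran from 4.46% between 80 and 90 Mb (7 of 157 regions) to 8.15% between 40 and 50 Mb (11 of 135). The 240 bins of the other autosomes ran from 3.83% to 14.5% between their 5th and 95th percentiles, so all 9 complete bins lay inside that range. The most lost regions, 28 and 24, lay in the 2 bins that also held the most regions. The median distance from one lost region to the next was 305 kb, and 8 pairs were direct neighbours with no other region between them. The number of such pairs was not set beside that of other chromosomes. Of the 122, 49 (40.2%) lay within 10 kb of a region called in all 4 libraries, against 45.3% of the lost regions elsewhere.

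Most lost regions were short and weak. Their median length was 531 bp, against 1159 bp for the chromosome's regions called in all libraries. Their median fold was 3.64 and 4.03 in wild-type replicates 1 and 2, against 8.16 and 9.05 at regions called in all libraries. In both wild-type lists 91.8% of them lay below the median by p-value, against 92.4% elsewhere.

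A few lost regions were strong, meaning that their p-value ranked above percentile 50 in each of the wild-type lists. There were 6 on chromosome 18, of 748 regions that were strong in both wild-type libraries (0.802%, background 0.758%). The most enriched was 18:85716060–85716416, with summit pileups of 347 and 461 reads in wild type and no call in the knockout. Its folds of 22.2 and 26.4 were the second highest and the highest of all calls in the respective lists. It is 357 bp long, and the nearest calls of both knockout libraries were 746 kb away.

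The other 5 strong lost regions had folds between 7.97 and 13.2. At 18:52979997–52981456, 1460 bp long, the folds were 10.0 and 13.2, and the nearest knockout calls were 186 kb away. At 18:30529618–30530124 they were 9.89 and 12.8, with a knockout replicate 2 call 8.56 kb away. The region 18:34495135–34496159 had folds of 8.80 and 9.48, and its nearest knockout calls were 9.31 and 9.29 kb away.

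The last 2 differed in their distance from other calls. At 18:47014423–47015169 the folds were 9.44 and 9.17, with knockout calls 26.8 and 26.6 kb away. At 18:17708114–17708587 they were 7.97 and 10.5, and the nearest call of any library was 654 kb away. This region bounds the longest stretch without a region given above. All 6 were still lost at a −log10 q of at least 5, with equal lists and with a minimum coverage of 50% per call. These settings only remove calls, the first and second of them the weakest, so they could not add a knockout call here. Since the regions were picked as strong, this outcome was largely set by the choice. All 6 were also still lost in fixed windows around summits.

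**Figure D2:**
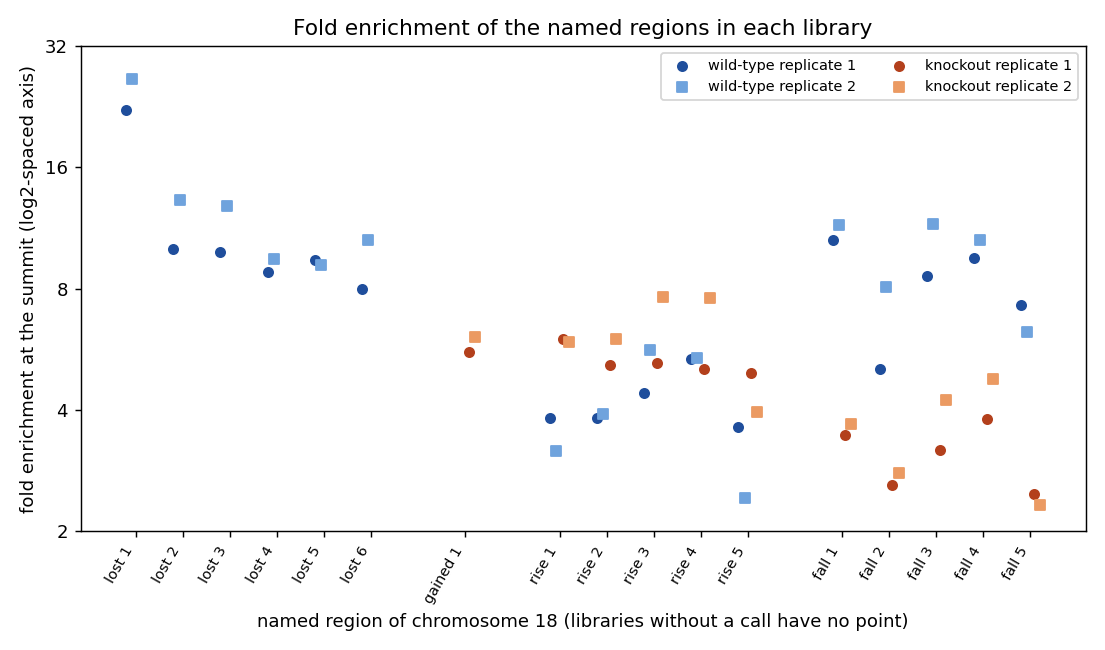
Fold enrichment at the summit (vertical axis, log2-spaced) of the named regions of chromosome 18 (horizontal axis, numbered within each class in the order of the text), 1 point per library; libraries without a call have no point. The first lost region stands at 22.2 and 26.4 and the gained region at 5.56 and 6.07. In the 5 regions with the largest fall in rank, picked for ranks without overlap, all knockout points lie below all wild-type points.

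Gained regions were weaker still. Their median fold was 2.37 and 2.43 in knockout replicates 1 and 2 and their median length 703 bp. Among them 1 was strong in both knockout libraries, of 672 such regions (0.149%, background 0.00850%). It lay at 18:39593786–39594518, with folds of 5.56 and 6.07 and percentiles of 50.9 and 53.0, just inside the limit. A single region cannot be read against a background of 2 in 23541.

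The share of gained regions was highest at the start of the chromosome. From 0 to 10 Mb 5 of 114 regions (4.39%) were gained, while there were 0 of 135 between 40 and 50 Mb and 0 of 177 between 50 and 60 Mb. The 95th percentile of bins on the other autosomes was 4.31%. These 5, named after their values were seen, all had low folds, between 2.04 and 2.75. The first of them, 18:3012165–3013677, had 2.53 and 2.06. The last, 18:7113510–7114299, had 2.75 and 2.17. None of them was strong.

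Many of the other regions were called in some libraries of both genotypes or in 1 library alone. Both wild-type libraries and 1 knockout library called 151 regions (8.59%, background 8.25%), and in 125 of them the knockout library was replicate 2. Both knockout libraries and 1 wild-type library called 26 (1.48%, background 1.88%). A single library called 243 (13.8%, background 17.0%). Of these, 112 were in wild-type replicate 2, 58 in knockout replicate 2, 46 in wild-type replicate 1 and 27 in knockout replicate 1. Calls in 1 library of each genotype were found in 37 regions for the replicates 2 (2.11%, elsewhere 1.85%) and in 0 for the replicates 1 (elsewhere 0.336%). Wild-type replicate 1 and knockout replicate 2 alone called 21 (1.195%, elsewhere 0.851%), and wild-type replicate 2 and knockout replicate 1 alone called 7 (0.398%, elsewhere 0.559%).

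The libraries shared slightly more of this chromosome than of the others. The base pairs covered in both wild-type libraries made up a Jaccard index (shared over total) of 0.824, against 0.804 on the other autosomes, and the knockout pair had 0.761 against 0.737. Pairs across genotype lay between 0.705 and 0.765 on chromosome 18. The pair of wild-type replicate 1 and knockout replicate 2, at 0.765, was as close as the knockout pair.

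Chromosome 18 was taken up with its rank changes in these libraries known, so the ranks and pileups that follow are given as a description with no test. Over the regions called in all libraries on the autosomes, each library's calls were ranked by p-value from 0 to 100. On chromosome 18 the median rank was 50.5 and 50.9 in wild-type replicates 1 and 2 and 54.3 and 53.6 in knockout replicates 1 and 2. Both knockout values lay above both wild-type values. On the other autosomes the knockout medians were 49.9 and 49.8. The median change per region, the mean knockout rank minus the mean wild-type rank, was 1.90 percentile points on chromosome 18 and 0.37 elsewhere, a difference of 1.53, or 0.678 with calls ranked by fold.

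Library pairs of 1 genotype showed little of this shift. Relative to the other autosomes, the median rank difference on chromosome 18 was −0.141 between the wild-type replicates and 0.081 between the knockout replicates. The 4 differences of a knockout minus a wild-type library were 1.30, 1.45, 1.58 and 1.94. Each of these 4 values was larger in size than the differences between replicates, of which there is 1 per genotype. The 4 values share their libraries, so they are not separate observations. The chromosome was taken up with its rank change known, so this comparison is no independent support. Single regions varied far more than the median, with a standard deviation of 7.38 percentile points over the 1120 regions and an interquartile range from −1.26 to 5.99.

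Of the 1120 regions, 523 (46.7%, background 31.8%) ranked higher in both knockout libraries than in both wild-type libraries, and 205 (18.3%, background 26.9%) ranked lower. In the other 392 the genotypes overlapped. Chromosome 14 had the only larger share of higher-ranked regions among the autosomes, 51.0%, and chromosome 1 had the smallest, 25.4%. The choice of the chromosome rests on the same ranks, so these shares are no independent support.

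The median change per region was positive along the chromosome, but the library medians of rank were not higher in the knockout in every bin. The median rank change was positive in all 9 bins with at least 20 regions called in all libraries, from 0.697 between 0 and 10 Mb to 2.45 between 80 and 90 Mb. Apart from the first bin, the bins lay between 1.73 and 2.45. The 240 bins of the other autosomes had a median of 0.412 and a 95th percentile of 1.99. All 9 bins of chromosome 18 lay above the median of the other bins, as did their shares of higher-ranked regions, from 39.0% between 40 and 50 Mb to 53.1% between 70 and 80 Mb. Library medians of rank from 0 to 10 Mb went the other way, at 45.1 and 44.4 in wild type against 40.9 and 41.8 in the knockout. From 50 to 60 Mb they overlapped, at 49.5 and 46.8 against 48.0 and 51.6. In the other complete bins both knockout medians lay above both wild-type medians.

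**Figure D3:**
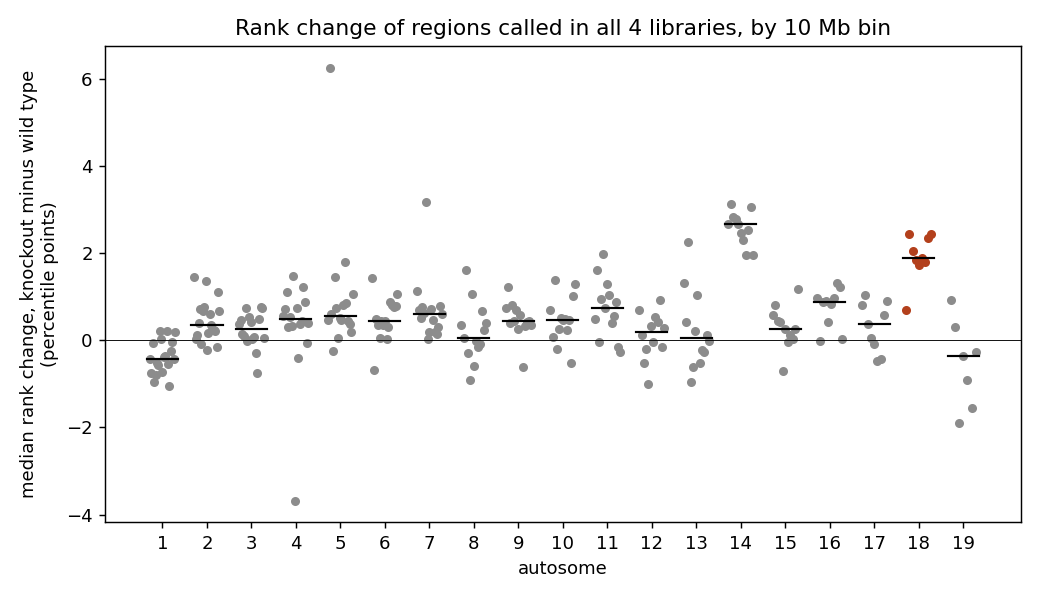
Median rank change from wild type to knockout in percentile points (vertical axis) of regions called in all 4 libraries, 1 point per 10 Mb bin with at least 20 such regions, by autosome (horizontal axis); black bars are medians of bins. Of the 9 bins of chromosome 18, in red, 8 lie between 1.73 and 2.45 and the first at 0.697; the bins of chromosome 14 lie higher as a group.

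The regions whose rank was most different between the genotypes went in both directions. The largest upward change was at 18:3623176–3623983. Its ranks were 9.46 and 3.42 in wild type versus 48.0 and 38.3 in the knockout, and its pileups 59 and 50 reads against 108 and 108. At 18:28984778–28985884 the ranks were 9.46 and 7.60 against 40.9 and 39.1, and the folds 3.83 and 3.90 against 5.17 and 6.02. In both regions the knockout libraries were higher in fold as well as in rank, by which the regions were picked.

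The 3 next upward changes were less uniform. At 18:26313800–26314464 the ranks were 14.1 and 19.6 against 41.4 and 50.2, but the folds of 4.40 and 5.64 in wild type overlapped with 5.23 and 7.64 in the knockout. At 18:4439672–4440884 the folds of 5.36 and 5.39 likewise overlapped with 5.06 and 7.59. At 18:58419518–58420556 the folds were 3.64 and 2.42 against 4.95 and 3.96, with 56 and 38 reads against 89 and 72. These 5 regions lay between 15.2 and 268 kb from the nearest region called in all libraries.

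The largest downward change was at 18:35504369–35505631, in the fullest bin. Its folds were 10.6 and 11.5 in wild type versus 3.47 and 3.69 in the knockout, its pileups 165 and 190 reads against 62 and 67, and its rank was lower by 33.9 points on average. At 18:60728379–60729720 the folds were 5.06 and 8.08 against 2.61 and 2.79, and the wild-type replicates themselves differed in pileup, at 247 and 491 reads. This region lay 3.42 kb from another one called in all libraries, within the densest 1 Mb.

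The same direction held at 3 more regions. Folds at 18:81663442–81664126 were 8.61 and 11.6 against 3.19 and 4.23. Folds at 18:61922975–61923836 were 9.52 and 10.5 against 3.80 and 4.76. At 18:50130412–50131906 they were 7.27 and 6.26 against 2.48 and 2.33, with 113 and 100 reads against 44 and 42. In all 5 regions with a downward change, both knockout folds lay below both wild-type folds. These regions were picked for ranks without overlap between genotypes. Rank and fold rest on the same summit pileup and background, so the folds are no separate support.

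The same calls can be put in reads, which is no separate readout, since the p-value that set the ranks also enters the pileup. The pileup at a summit was recovered from the deposited fold and p-value and came out whole, within 0.05 reads, for every call on chromosome 18. Over the 1120 regions the median pileup was 192 and 228 reads in wild type versus 143 and 179 in the knockout, against 197, 230, 138 and 172 on the other autosomes. Chromosome 18 was thus below the other autosomes in both wild-type libraries and above them in both knockout libraries. The log2 ratio (knockout over wild type) had a median of −0.29 on chromosome 18 and −0.37 on the other autosomes, a difference of 0.081.

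Set against the mean of the 4 libraries at each region and against the other autosomes, chromosome 18 stood at −0.043 and −0.042 in log2 pileup in wild type versus 0.029 and 0.046 in the knockout. The spread within a genotype, pooled, was 0.0086 (SD). Between chromosomes, the same log2 ratio relative to the rest had an SD of 0.050 over the other autosomes, from −0.091 on chromosome 19 to 0.120 on chromosome 14, and chromosome 18 was the third highest. The difference was positive in all 9 bins, from 0.029 between 40 and 50 Mb to 0.10 between 70 and 80 Mb. The 240 bins of the other autosomes had a median of −0.0076 and a 95th percentile of 0.097. By library, the genotypes overlapped from 40 to 50 Mb, at −0.015 and −0.019 in wild type against −0.034 and 0.032 in the knockout. They also overlapped from 50 to 60 Mb, at −0.0083 and −0.026 against −0.0083 and 0.028. In the other complete bins they were apart.

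**Figure D4:**
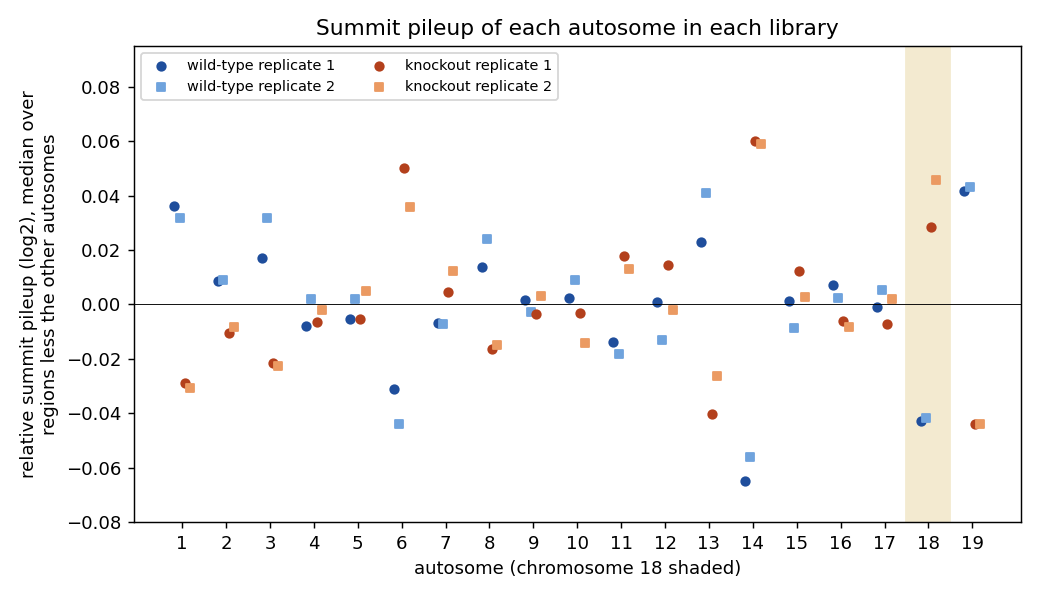
Summit pileup of each autosome (horizontal axis) in each library, as the median over regions called in all 4 libraries of the log2 pileup less the region's mean over libraries, minus the same on the other autosomes (vertical axis). On chromosome 18, shaded, the wild-type libraries lie at −0.043 and −0.042 and the knockout libraries at 0.029 and 0.046. Both knockout libraries also lie above both wild-type libraries on chromosomes 6, 7, 11, 14 and 15. They lie below them on chromosomes 1, 2, 3, 8, 10, 13, 16 and 19.

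The local background moved with the pileup. The log2 ratio of knockout to wild-type background at these regions exceeded that of the other autosomes by 0.068, which was the third highest among 19 autosomes. The log2 ratio of folds, which divide the pileup by this background, exceeded that of the other autosomes by 0.038. The part of the background in the pileup difference was not tested.

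The shift was also split by the strength of the region. For mean ranks over all libraries below 25, from 25 to 50, from 50 to 75 and above 75, the rank change exceeded that of other autosomes by 0.826, 3.18, 1.88 and 0.859 points. In log2 pileup the excess was 0.021, 0.10, 0.092 and 0.084 in the same order, lowest at the weakest regions. In log2 fold the excess was 0.078, 0.074, 0.026 and 0.0051, so the weakest regions had the highest value by fold and the lowest by pileup. From the second class to the last, both measures declined.

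By length, the log2 pileup excess was 0.026 for 128 regions under 750 bp and 0.10 for 20 regions of 2500 bp or more. The 541 and 431 regions of the intermediate length classes had 0.083 and 0.089. In log2 fold the same classes, from the shortest to the longest, stood at −0.0027, 0.042, 0.037 and −0.023. The excess was thus smallest by pileup at the shortest regions, and by fold it turned negative in the shortest and in the longest class.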

How the data were processed

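ATAC-seq peak lists of 4 libraries were used, 2 per genotype. There is 1 deposited list per library, and MACS2 and the GRCm39 build are named per the submitters' processing notes. For the aligner, the versions, the duplicate filter and the Tn5 shift, nothing was given in the sources used here. The authors deposited for each call a display score (not used), the fold enrichment at the summit, and the −log10 p-value and −log10 q-value of the summit.

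Calls on the 19 autosomes and X and Y were merged into union regions with 1-based positions (Python 3.11.15, pandas 2.3.3, NumPy 2.4.6, SciPy 1.17.1, figures with matplotlib 3.10.9). A list percentile ranks a call by −log10 p within its library. Pileup and background were recovered from the fold, (pileup + 1) / (background + 1), and the Poisson p-value. Merging, lost and gained counts and the recovery of pileups were tested on simulated data. Shares of calls have Wilson 95% intervals.

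Named regions were the strongest shared region of each bin, strong lost and strong gained regions (up to 12 each), the 5 largest rank changes each way without overlap between genotypes, and the longest region, densest 1 Mb and longest gap. The members and lists were chosen with earlier results of these data known. Gene lists were not analysed, since the gene table at hand is of another build, and sequences are not printed. The alternatives were stricter q-values, equal lists, 50% coverage, summit windows, other ranks and references, and leaving out each library.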

Additional observations from a re-analysis of the deposited data

How the results depend on the processing

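Leaving out 1 library at a time, which relaxes the rule and so raises the counts, gave 149 to 247 lost regions on chromosome 18. Gained regions then numbered 41 to 88. The share of calls then differed by −0.034 to −0.020 percentage points, the rank shift against the other autosomes was 1.27 to 1.77 points, and the log2 pileup difference was 0.067 to 0.081. With a −log10 q of at least 5 there were 19 gained regions, the difference in the share of calls turned to 0.029 and the rank shift was 1.73. Equal lists gave 78 lost and 63 gained regions and a share difference of −0.018. By covered base pairs the share difference turned to 0.028. Ranked by fold, the shift was 0.678, and the deposited fold gave a log2 difference of 0.038 in place of 0.081. Against a reference without chromosomes 6 and 14 the log2 pileup difference was 0.090. Beyond the relaxed rule, the cause of these changes was not tested. The rank shift and the pileup difference stayed positive in every alternative run. The chromosome was taken up with its rank change known and each run reuses the same lists, so the sign is no independent support. With the replicate block, which pairs libraries by number, the share difference was −0.027, with an exact sign-flip p of 0.5, the smallest 2 pairs allow. The rank shift was then 1.62 and the log2 pileup difference 0.081, both given with no test. The numbers are not stated to mark shared cultures. Without read totals, regions near the calling threshold cannot be told from regions missed for depth.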
